A study of Mus musculus with 6 samples.

Results

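The 32 genes described here encode some of the enzymes of cholesterol and fatty acid synthesis. They also encode 1 of the SREBP proteins that control transcription of such genes, and proteins that regulate it or transfer sterol. All were measured in macrophages from the mouse colon after experimental colitis. They were chosen by gene symbol, 1 row each, from the 25124 gene rows of the expression table, and all 32 were found. By role they comprise 18 enzymes of the route from acetyl-CoA to cholesterol (here the sterol steps), 1 enzyme of the isoprenoid side branch, 4 SREBP regulators, 1 sterol transfer protein and 8 enzymes of fatty acid synthesis and remodelling. The macrophages were sorted by flow cytometry from the colonic lamina propria of C57BL/6 mice aged 8 weeks. A group of 3 wild type libraries was compared with 3 libraries from mice that carry an E4BP4 transgene restricted to macrophages. E4BP4, a transcription factor of the basic leucine zipper class, is the product of Nfil3. Every mouse of both groups drank dextran sulfate sodium, which injures the colonic epithelium and causes colitis, at 2.0% for 7 days, then plain water for 7 days, and was killed on day 14. No mouse without colitis was analysed here, and the promoter that drives the transgene is not given in the sources used here. The genotype entries of transgenic replicates 2 and 3 give a different digit in the transgene's name, and the sample titles were followed.

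Cholesterol is built from acetyl-CoA through mevalonate, farnesyl diphosphate, squalene and lanosterol. When sterol in the endoplasmic reticulum is low, SCAP escorts SREBP2 (encoded by Srebf2) to the Golgi, where proteases release the part that enters the nucleus and raises transcription of these genes, often together with the factor NF-Y, which binds CCAAT boxes. When sterol is high, INSIG proteins hold the complex back. Fatty acid genes respond more to the related SREBP1 and to the liver X receptors (LXR), and in macrophages inflammatory signals are known to shift both arms.

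Of the 32 genes, 13 were lower in the transgenic macrophages and 0 were higher in a test across the 12633 genes that averaged 1 TPM or more in either group. TPM, transcripts per 1e6, is a level scaled for gene length and depth. Over all tested genes 13.2% were lower and 8.71% were higher by the same rule, a limma adjusted p below 0.05 on the log2(TPM + 1) scale (1666 and 1100 genes, against 1315 and 1425 with upper-quartile scaling, under which 9 of the 32 were lower). All 32 genes passed the filter on low values. The falls were modest: on the log2(TPM + 1) scale none of the 13 reached 1.5-fold. Of all 12633 tested genes, only 339 were called lower with a fall at least that large. On the plain TPM scale Hsd17b7, a low gene, passed 1.5-fold, with a transgenic to wild type ratio of 0.619. The 13 falls were mostly on sterol steps, with 10 of 18 lower, against 1 of 8 fatty acid genes and 2 of the 4 regulators. At an unadjusted p below 0.05 in limma, 2 of the 32 genes were higher, both fatty acid desaturases, against 14.7% of all tested genes. Limma-voom on reads recovered from the TPM values called these 2 higher, against 14.1% of all tested genes.

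The summed level of the 18 sterol steps was 319, 326 and 326 TPM in wild type, against 261, 278 and 278 TPM in transgenic macrophages. The groups did not overlap, and the transgenic mean was 15.9% lower, at 272 ± 10.1 TPM against 324 ± 4.22 TPM (SD, n = 3 each). The fatty acid genes summed to 117, 120 and 122 TPM in wild type, against 115, 124 and 118 TPM in transgenic macrophages, which overlapped. This sum follows mostly Fads1 and Elovl5, at 43.0 and 41.1 TPM in wild type. Of the 8 genes, 3 (Fasn, Scd1 and Elovl6) lay below wild type without overlap, against 22.3% of all tested genes. Only Fads1 lay above, against 17.1%. The median log2 fold change was -0.20 over the sterol steps, -0.03 over the fatty acid genes and -0.01 over all tested genes. These groups were described and not tested against each other. In bulk libraries fewer cells of a type and less RNA per cell cannot be told apart.

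**Figure D1:**
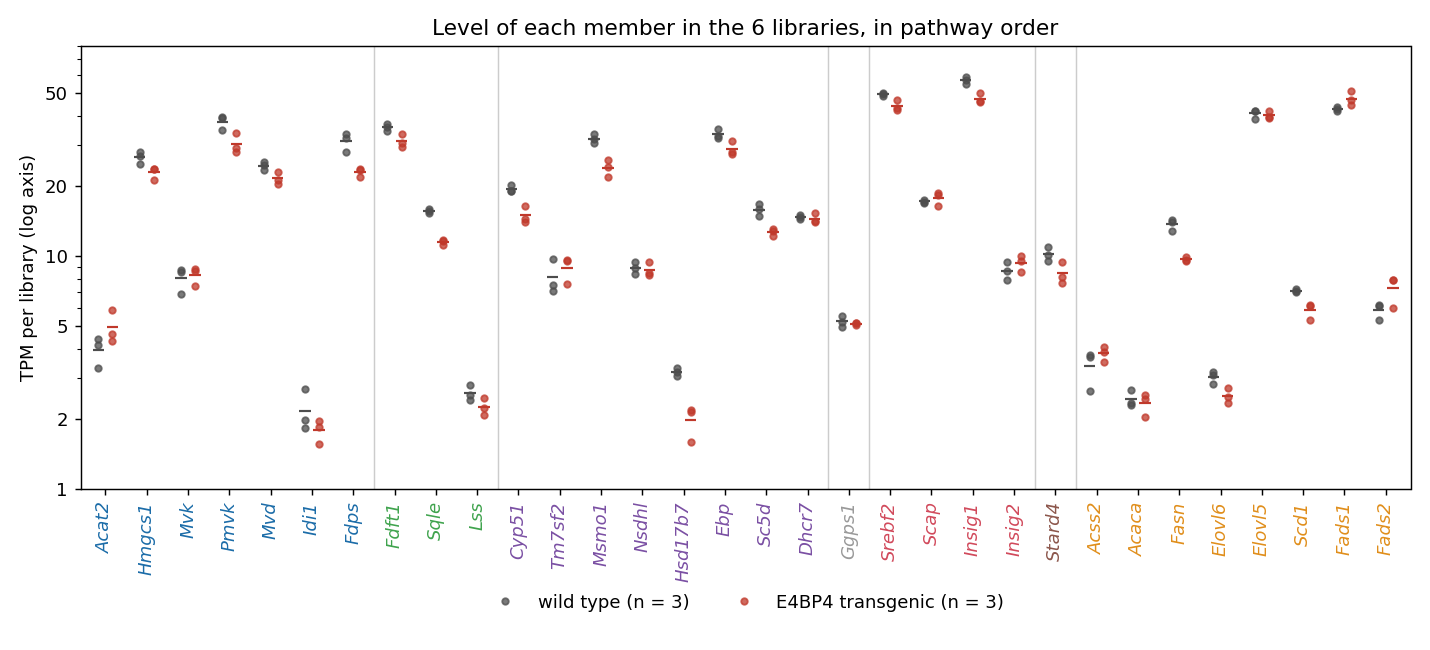
Level of each of the 32 genes in TPM (log axis) in the 3 wild type (grey) and 3 E4BP4 transgenic (red) libraries, ordered by pathway step, with a bar at each group mean. Sqle, Msmo1, Fdps and Fasn have all transgenic points below all wild type points, whereas Dhcr7, Scap and Elovl5 overlap.

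**Figure D2:**
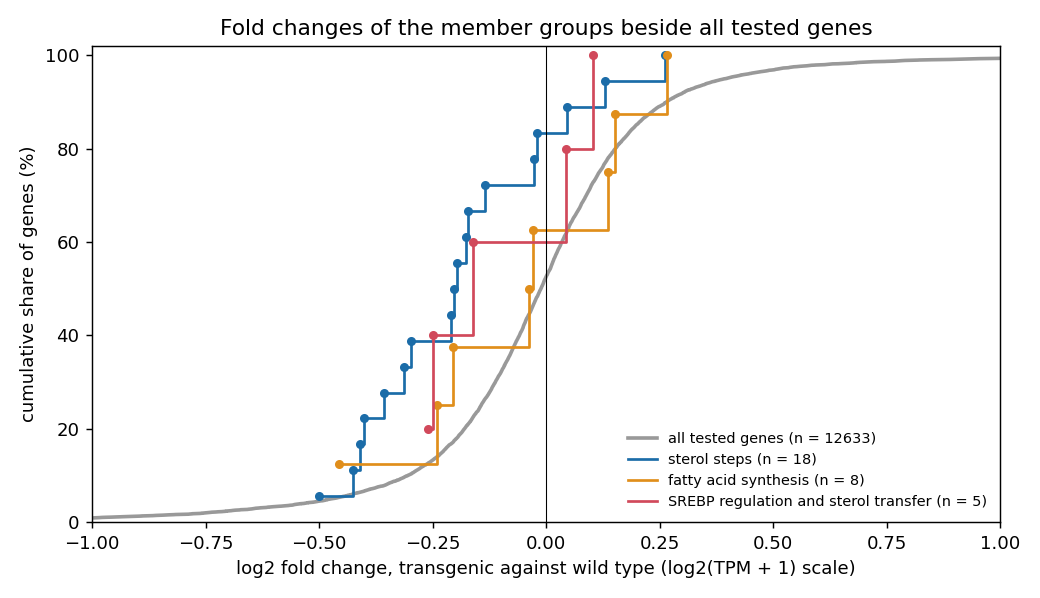
Cumulative share of genes (%) against the log2 fold change of transgenic over wild type, for all 12633 tested genes (grey) and for the sterol steps, the fatty acid genes and the regulators with Stard4. The sterol steps lie to the left of the curve of all genes, with a median of -0.20, while the fatty acid genes lie close to it, with a median of -0.03.

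Several features of the libraries bear on these values. The file headers state 17.2 to 18.9 M reads (M, 1e6) per library, of which 13.97 to 15.1 M fell in genes. Nfil3 was at 117, 120 and 119 TPM in wild type, against 133, 134 and 141 TPM in transgenic libraries, a ratio of 1.14 (limma adjusted p = 0.00261), so the labels and the transgene's gene pointed the same way. The labels do not state that each library is a different animal, and the p-values reflect the spread among these libraries, which could be technical. Macrophage markers summed to 19880 to 20109 TPM in wild type, against 19233 to 19313 TPM in transgenic libraries, with Lyz2 and the complement genes C1qa and C1qb the most abundant. Of 12 macrophage markers 4 rose (33.3%) and 6 fell (50%), where 8.71% of all tested genes rose and 13.2% fell. Markers of other cells also differed: 11 of 15 epithelial markers fell and 1 rose (1184 to 1185 TPM summed in wild type, 704 to 705 TPM in transgenic) and 7 of the 10 tested of 14 neutrophil markers fell (1026 to 1056 and 434 to 489 TPM). Fibroblast and muscle markers fell in 5 of 10 cases (165 to 167 and 120 to 124 TPM), and endothelial markers in 6 of 8 (28.0 to 31.0 and 10.9 to 14.7 TPM). Lymphoid markers rose in 6 of 14 tested cases (319 to 329 and 364 to 386 TPM) and dendritic cell markers in 4 of 9 (84.6 to 91.1 and 113 to 122 TPM), where 1 fell. Of 15 proliferation markers 1 fell, a share of 6.67% that is below that of all tested genes (272 to 281 and 249.8 to 260.2 TPM). No marker of these lists was at 0 in all libraries, and the part of these cells in the differences described here was not tested.

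Among the 7 genes that lead from acetyl-CoA to farnesyl diphosphate, 3 fell: Hmgcs1, Pmvk and Fdps. Fdps (chr3:89093588-89101967, mm10, minus strand), farnesyl diphosphate synthase, makes the last intermediate shared by sterols and isoprenoids. It was at 27.9, 32.3 and 33.5 TPM in wild type, against 23.3, 23.6 and 21.9 TPM in transgenic macrophages. Every transgenic library lay below every wild type library, and the mean was 26.6% lower (log2 fold change -0.43 ± 0.07 SE, limma adjusted p = 0.00433). Reads of Fdps in shared bases cannot be told from those of Gm43738, a gene model on the same strand that has no row in the table. They share 1124 bases over all annotated exons of Fdps, whose measured transcript has 1233 bases. Pmvk, phosphomevalonate kinase, stood at 39.2, 39.4 and 34.7 TPM in wild type, against 27.9, 29.0 and 33.8 TPM in transgenic libraries. The third transgenic library came close to the lowest wild type library without reaching it (log2 fold change -0.31 ± 0.08, limma adjusted p = 0.0278). Leaving out wild type replicate 1 or 2, or transgenic replicate 1 or 2, ended the Pmvk call, with a limma adjusted p of up to 0.0919 over the alternatives.

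Hmgcs1, the synthase that makes HMG-CoA early in the pathway, had 26.8, 24.9 and 28.0 TPM in wild type, against 21.2, 23.7 and 23.7 TPM in transgenic macrophages. The gap between the groups was narrow, and the fall of 14.03% only just passed (log2 fold change -0.21 ± 0.06, limma adjusted p = 0.0491). It held in 4 of 14 alternatives and, among the 6 that left out a library, only without wild type replicate 2. The Hmgcs1 promoter is shown because, of the 26 genes of the set whose promoter was searched, it is the 1 with a match to TCACNCCAC. This is a classical form of the sterol regulatory element that SREBP binds, and variants of it were not searched. The Hmgcs1 stretch spans chr13:119690101-119690350 on the plus strand of GRCm38.p6, the 250 bases before the RefSeq transcription start. Capitals mark CCAAT boxes, which read ATTGG on the other strand, and the sterol regulatory element TCACNCCAC, whose first base is 137 bases before the start.
Hmgcs1: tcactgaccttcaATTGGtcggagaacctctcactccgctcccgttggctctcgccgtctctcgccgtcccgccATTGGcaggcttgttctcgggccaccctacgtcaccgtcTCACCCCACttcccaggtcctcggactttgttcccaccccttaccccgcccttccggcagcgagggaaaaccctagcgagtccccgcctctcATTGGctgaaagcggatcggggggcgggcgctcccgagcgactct

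The remaining early steps did not pass. Mvd, the decarboxylase that forms isopentenyl diphosphate, was at 25.2, 23.3 and 24.7 TPM in wild type, against 21.2, 23.0 and 20.5 TPM in transgenic libraries. Its groups did not overlap, but the difference missed the threshold (log2 fold change -0.17 ± 0.06, limma adjusted p = 0.0694). Idi1, the isomerase that follows, was low in every library, at 1.83 to 2.67 TPM in wild type, against 1.55 to 1.96 TPM in transgenic, and its 95% interval of -0.50 to 0.15 leaves a fall of the size seen for Fdps possible. Mvk, mevalonate kinase, had a log2 fold change of 0.05 (interval -0.19 to 0.28). Acat2, the thiolase that joins acetyl-CoA units, had a log2 fold change of 0.26 (interval -0.04 to 0.56, limma adjusted p = 0.199) from 3.31 to 4.39 TPM in wild type, against 4.33 to 5.87 TPM in transgenic libraries. Acat3, a near copy of Acat2 whose reads may be shared with it, averaged 10.6 TPM in both groups.

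From farnesyl diphosphate to lanosterol, Fdft1 and Sqle fell and Lss did not pass. Sqle (chr15:59315092-59331193, mm10, plus strand), squalene epoxidase, adds the oxygen on which the sterol ring closes and is a control point of the pathway. It was at 15.9, 15.5 and 15.4 TPM in wild type, against 11.1, 11.7 and 11.6 TPM in transgenic macrophages. Replicates were close in both groups and the mean was 26.4% lower (log2 fold change -0.41 ± 0.05, limma adjusted p = 0.00123). Fdft1, squalene synthase and the first enzyme committed to sterols, had 34.5, 37.1 and 35.9 TPM in wild type, against 29.4, 33.5 and 30.6 TPM in transgenic libraries. The groups were separate by a small margin (log2 fold change -0.20 ± 0.06, limma adjusted p = 0.0434), and of the 6 fits without a library only that without transgenic replicate 2 kept the call. Fdft1 shares 774 exon bases with Ctsb, an abundant lysosomal protease gene on the opposite strand at 1423 TPM in wild type, against 1427 TPM in transgenic libraries, and whether the counting used strand is not given in the sources used here. Even coverage of Ctsb would by itself put 374 TPM on the Fdft1 row if strand were ignored, and the row holds 35.8 TPM in wild type. Lss, which closes the ring to form lanosterol, lay at 2.41 to 2.78 TPM in wild type, against 2.08 to 2.46 TPM in transgenic libraries, with an interval of -0.38 to 0.11.

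Of the 8 genes that turn lanosterol into cholesterol 5 fell: Cyp51, Msmo1, Hsd17b7, Ebp and Sc5d. Msmo1 (chr8:64718123-64733578, mm10, minus strand) oxidises the methyl groups removed from the ring and had 30.6, 33.5 and 31.8 TPM in wild type, against 21.9, 25.9 and 24.1 TPM in transgenic macrophages. The highest transgenic library stayed below the lowest wild type library, and the mean was 24.9% lower (log2 fold change -0.40 ± 0.07, limma adjusted p = 0.00412). Cyp51 (chr5:4080674-4104697, mm10, minus strand), the lanosterol demethylase that opens this stretch, had 19.1, 19.1 and 20.1 TPM in wild type, against 14.5, 16.5 and 13.99 TPM in transgenic libraries. The mean was 22.9% lower with no overlap (log2 fold change -0.36 ± 0.07, limma adjusted p = 0.00797). Hsd17b7, a ketosteroid reductase of the demethylation complex, had the largest fitted fall of the 32 genes, from 3.05, 3.19 and 3.30 TPM in wild type to 2.17, 1.59 and 2.14 TPM in transgenic libraries. It rested on 89 to 189 reads per library, and the fall of 38.1% (log2 fold change -0.50 ± 0.12, limma adjusted p = 0.0199) was no longer called without wild type replicate 2 or 3 or transgenic replicate 2, with a limma adjusted p of up to 0.0603.

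Sc5d and Ebp act near the end of the route, Ebp as the isomerase that moves the ring double bond and Sc5d as the desaturase that follows. Sc5d was at 15.9, 14.8 and 16.8 TPM in wild type, against 13.0, 12.2 and 12.8 TPM in transgenic macrophages, a fall of 19.8% (log2 fold change -0.30 ± 0.06, limma adjusted p = 0.0127). Ebp was at 32.1, 32.7 and 35.3 TPM in wild type, against 27.5, 27.9 and 31.1 TPM in transgenic libraries. Neither gene's groups overlapped, but the gap for Ebp was small (log2 fold change -0.20 ± 0.06, limma adjusted p = 0.0464), and without single libraries Ebp was called only when transgenic replicate 3 was left out. Their promoters are shown as examples of called genes whose windows hold CCAAT boxes (capitals) without a match to TCACNCCAC. They span chr9:42264301-42264550 for Sc5d and chrX:8193513-8193762 for Ebp, both on the minus strand of GRCm38.p6 (RefSeq) and ending at the base before the start.
Sc5d: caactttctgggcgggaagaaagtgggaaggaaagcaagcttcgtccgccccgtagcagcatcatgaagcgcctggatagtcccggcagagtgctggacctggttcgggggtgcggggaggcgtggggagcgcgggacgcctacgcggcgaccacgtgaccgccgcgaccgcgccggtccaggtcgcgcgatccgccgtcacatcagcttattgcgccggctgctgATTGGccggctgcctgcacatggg
Ebp: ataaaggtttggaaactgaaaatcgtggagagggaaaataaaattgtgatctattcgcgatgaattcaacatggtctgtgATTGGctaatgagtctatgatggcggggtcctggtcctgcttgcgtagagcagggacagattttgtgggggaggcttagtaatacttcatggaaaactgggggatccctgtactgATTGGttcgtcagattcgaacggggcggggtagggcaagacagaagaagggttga

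The other late genes overlapped between groups. Dhcr7, a final reductase, was at 15.0, 14.4 and 14.7 TPM in wild type, against 14.1, 14.01 and 15.2 TPM in transgenic libraries. This was among the tightest estimates of the set, and its interval of -0.15 to 0.11 does not contain the fitted fall of Sc5d, Cyp51 or Msmo1. Nsdhl, the decarboxylating dehydrogenase that works with Msmo1 and Hsd17b7, had a log2 fold change of -0.03 (interval -0.20 to 0.15). Tm7sf2, a sterol ring reductase, had 0.13 (interval -0.17 to 0.43). Over all its annotated exons it shares 532 bases with Vps51 on the same strand, and its measured transcript has 1467 bases. If shared reads were counted for both genes, even coverage of Vps51 would by itself put 10.1 TPM on the Tm7sf2 row. That row holds 8.10 TPM in wild type, against 8.92 TPM in transgenic libraries, so it may not measure Tm7sf2 alone. Ggps1, which diverts farnesyl diphosphate to geranylgeranyl diphosphate for protein prenylation, was at 4.97 to 5.54 TPM in wild type, against 5.03 to 5.17 TPM in transgenic macrophages (interval -0.21 to 0.15).

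**Figure D3:**
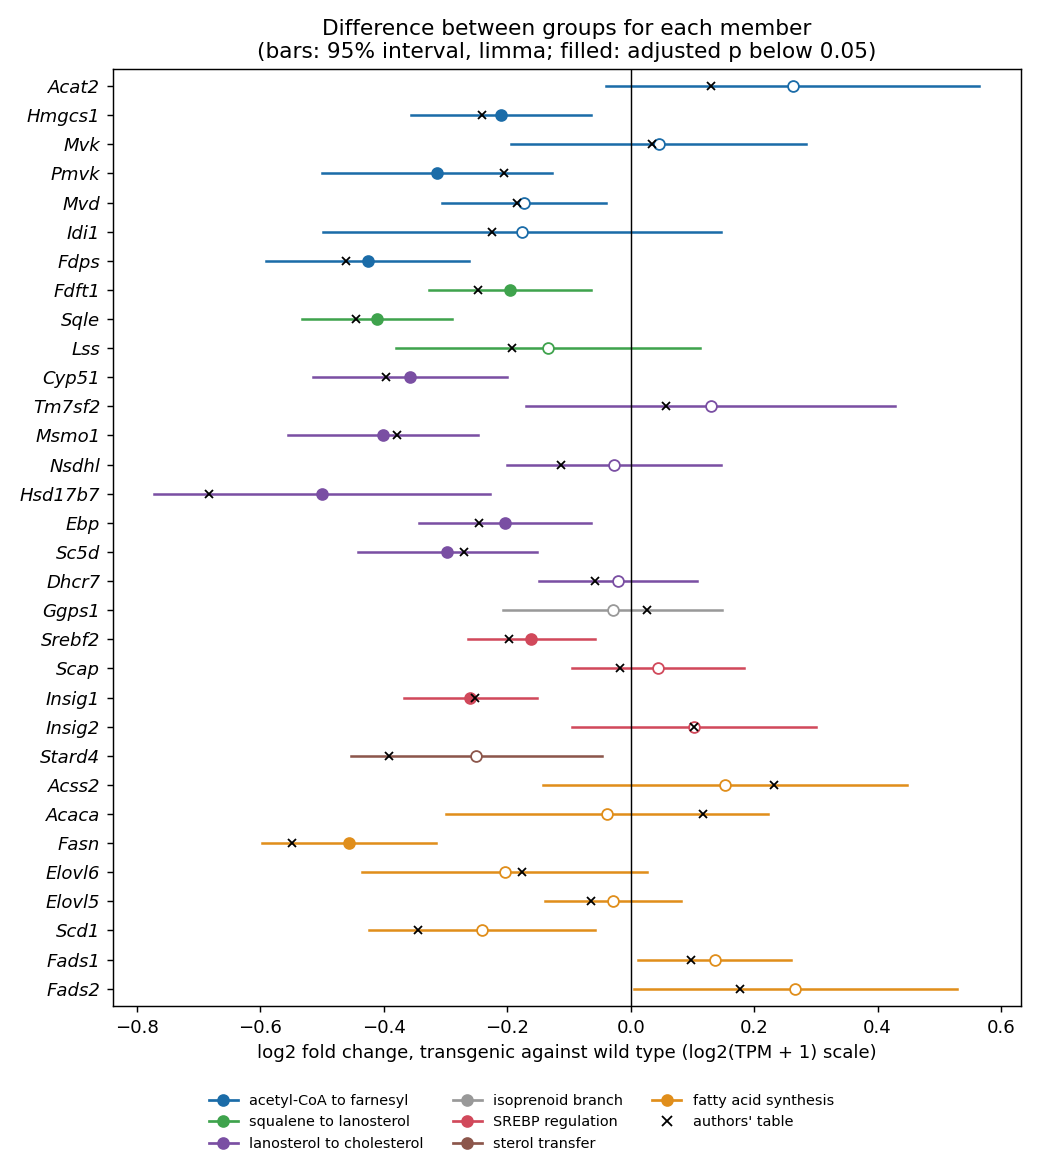
Log2 fold change of transgenic over wild type on the log2(TPM + 1) scale for each of the 32 genes, with 95% intervals from limma, coloured by role. Filled circles have a limma adjusted p below 0.05, all 13 of them left of 0, and crosses give the fold change in the authors' deposited table.

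Among the regulators, Srebf2 and Insig1 fell, and Scap and Insig2 did not pass. Insig1 encodes the sterol-sensing retention protein and is itself a known target of SREBP2. It was the most abundant of the 32 genes in wild type, at 57.3, 54.6 and 58.9 TPM, against 45.9, 50.1 and 46.2 TPM in transgenic macrophages. The groups were separate and the mean was 16.7% lower (log2 fold change -0.26 ± 0.05, limma adjusted p = 0.0062). Srebf2, the sterol-responsive transcription factor, had 48.8, 49.8 and 50.3 TPM in wild type, against 47.0, 43.5 and 42.5 TPM in transgenic libraries. The first transgenic library lay nearest to wild type (log2 fold change -0.16 ± 0.04, limma adjusted p = 0.037), and of the fits without a library only that without this one kept the call. The Srebf2 call held in 5 of 14 alternatives, with a limma adjusted p of up to 0.116.

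Insig2, which retains SREBP as Insig1 does but is not known to depend on SREBP in the same way, was at 7.89, 9.40 and 8.64 TPM in wild type, against 9.50, 8.56 and 10.002 TPM in transgenic libraries. The groups overlapped and the interval was -0.10 to 0.30. Scap, the escort protein, had 17.5, 17.1 and 16.9 TPM in wild type, against 18.7, 16.4 and 18.2 TPM in transgenic macrophages, which also overlapped (interval -0.09 to 0.18). Stard4, a small protein that carries cholesterol between membranes, was at 10.1, 10.9 and 9.55 TPM in wild type, against 9.43, 8.14 and 7.67 TPM in transgenic libraries. All 3 transgenic values lay below the wild type values, but the difference missed the threshold (log2 fold change -0.25 ± 0.09, limma adjusted p = 0.0817). It was called without transgenic replicate 1 (limma adjusted p = 0.0394) and by limma-voom on recovered reads (adjusted p = 0.00509). The Insig1 and Insig2 promoters are set side by side because the pair differ in their values here. The Insig1 stretch is chr5:28071162-28071362 on the plus strand, from 250 to 50 bases before the start, and the Insig2 stretch is chr1:121332590-121332839 on the minus strand, upstream of the start that the table's transcript uses, both from RefSeq on GRCm38.p6. Capitals mark CCAAT boxes on either strand, 1 in Insig1 and 3 in Insig2.
Insig1: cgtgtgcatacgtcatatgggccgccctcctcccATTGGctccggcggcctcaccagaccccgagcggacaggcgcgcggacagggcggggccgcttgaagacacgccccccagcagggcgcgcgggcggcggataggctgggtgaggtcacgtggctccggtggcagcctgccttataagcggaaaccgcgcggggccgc
Insig2: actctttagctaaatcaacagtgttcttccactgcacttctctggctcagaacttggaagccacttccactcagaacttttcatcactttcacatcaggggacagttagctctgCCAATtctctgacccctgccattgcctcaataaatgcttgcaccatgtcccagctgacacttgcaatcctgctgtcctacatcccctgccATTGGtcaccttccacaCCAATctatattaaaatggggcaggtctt

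Of the 8 fatty acid genes, Fasn alone fell. Fasn, fatty acid synthase, makes palmitate from malonyl-CoA, and it was at 14.3, 12.9 and 13.96 TPM in wild type, against 9.90, 9.66 and 9.56 TPM in transgenic macrophages. The transgenic libraries were nearly equal and all below wild type, and the mean was 29.2% lower (log2 fold change -0.46 ± 0.06, limma adjusted p = 0.00153). The promoter is shown because its CCAAT boxes include a pair in opposite orientation that overlap (CCAATTGG in capitals). It spans chr11:120824548-120824797 on the minus strand of GRCm38.p6 (RefSeq), the 250 bases before the start.
Fasn: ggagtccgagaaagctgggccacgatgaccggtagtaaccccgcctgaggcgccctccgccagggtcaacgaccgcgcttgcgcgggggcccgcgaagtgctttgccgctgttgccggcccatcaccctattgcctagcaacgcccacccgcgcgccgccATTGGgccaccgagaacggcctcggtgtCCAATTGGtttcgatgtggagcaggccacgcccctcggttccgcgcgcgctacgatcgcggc

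The steps around Fasn did not pass the test. Acaca, the carboxylase that supplies malonyl-CoA, was at 2.33, 2.28 and 2.65 TPM in wild type, against 2.43, 2.54 and 2.04 TPM in transgenic libraries. Acss2, which makes acetyl-CoA from acetate, was at 2.64 to 3.77 TPM and 3.49 to 4.08 TPM. Both genes overlapped between groups, with intervals of -0.30 to 0.22 for Acaca and -0.14 to 0.45 for Acss2. Scd1, the desaturase that forms oleate, was at 7.19, 7.11 and 7.01 TPM in wild type, against 5.30, 6.18 and 6.13 TPM in transgenic macrophages. Its groups did not overlap, with a mean 17.4% lower, but it missed the threshold (log2 fold change -0.24 ± 0.08, limma adjusted p = 0.0656). Limma-voom on recovered reads called Scd1 lower (adjusted p = 0.0223). Elovl6, which lengthens palmitate to stearate, had 2.83 to 3.18 TPM in wild type, against 2.33 to 2.70 TPM in transgenic libraries, without overlap and with an interval of -0.44 to 0.03.

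The enzymes of polyunsaturated fatty acids had other values. Fads1 and Fads2, neighbouring desaturase genes on chromosome 19 that act in turn on essential fatty acids, are the 2 genes higher at an unadjusted p below 0.05, a smaller share of the 32 than the 14.7% of all tested genes. Fads1 was at 42.2, 43.8 and 43.0 TPM in wild type, against 46.7, 51.2 and 44.4 TPM in transgenic macrophages, the 1 gene of the 32 whose transgenic libraries all lay above wild type, where 17.1% of all tested genes did so. It missed the threshold (log2 fold change 0.14 ± 0.05, limma adjusted p = 0.112), and limma-voom on recovered reads called it (adjusted p = 0.00356). Fads2 was at 5.29, 6.08 and 6.14 TPM in wild type, against 6.00, 7.87 and 7.91 TPM in transgenic libraries, where the first transgenic library fell within the wild type range. Its limma adjusted p was 0.136 with all libraries, 0.0346 without transgenic replicate 1 and 0.0374 by limma-voom. Elovl5, which lengthens the products of these desaturases, was at 39.0 to 42.2 TPM in wild type, against 39.1 to 42.2 TPM in transgenic macrophages, with a narrow interval of -0.14 to 0.08.

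Whether a gene was called moved with its level. Of the 18 genes above 10 TPM in wild type, 12 fell, and of the 14 at or below 10 TPM only Hsd17b7 did. Among the sterol steps above 10 TPM, 9 of 11 fell, the exceptions being Mvd and Dhcr7. Over all 6562 tested genes above 10 TPM in wild type 19.5% fell, and over the 6071 at or below 10 TPM 6.33% fell, a share close to that of the 14 low genes. Groups that did not overlap with the transgenic libraries lower were found for 17 of the 32 genes, against 22.3% of all tested genes. The median coefficient of variation within a group was 5.55% in wild type and 7.35% in transgenic libraries for the 32 genes, against 6.89% and 6.30% over all tested genes. For genes that did not pass, intervals reached from -0.50 for Idi1 to 0.56 for Acat2, both under 5 TPM in wild type.

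Of the 13 falls 7 were called under all 14 processing alternatives: Fdps, Sqle, Cyp51, Msmo1, Sc5d, Insig1 and Fasn. A fall under the reported fit and every alternative was found for 7.86% of all tested genes and a rise for 4.44%. Hsd17b7 and Pmvk lost the call under some alternatives, while Srebf2, Fdft1, Ebp and Hmgcs1 lost it under most of them, including both other scalings of the columns. The number of genes that fell was 8 without wild type replicate 1, 8 without replicate 2 and 8 without replicate 3, and 9 to 10 without a transgenic library.

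**Figure D4:**
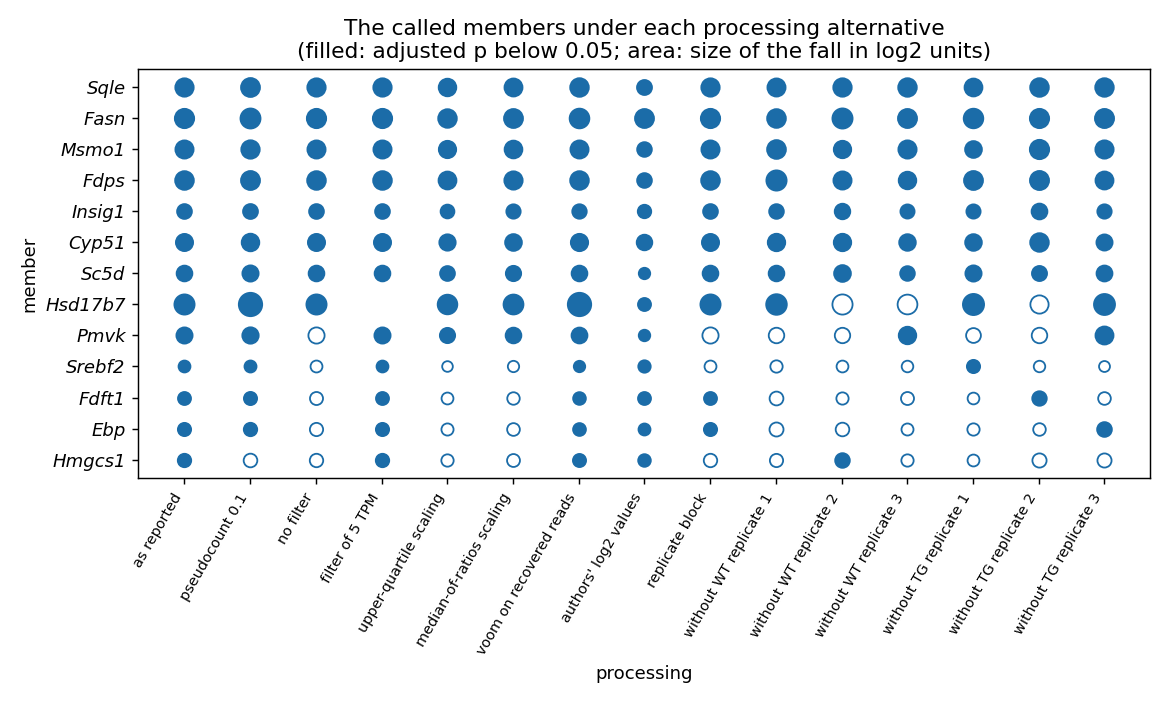
The 13 called genes (rows) under the reported fit and 14 processing alternatives (columns), where WT is wild type and TG transgenic. Filled circles have an adjusted p below 0.05, open circles do not, the area gives the size of the fall in log2 units, and an empty cell has no value. The upper 7 genes are filled throughout, and the lower 6 are open in some columns.

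In the authors' deposited table of the same comparison, 16 of the 32 genes had an adjusted p below 0.05 and a lower value in transgenic macrophages, against 13.2% of its 20884 genes with a fold change, and 0 were higher, against 11.2%. At an unadjusted p below 0.05 the authors' deposited table has Fads1 higher (p = 0.0393). The 16 include all 13 genes called here together with Mvd, Stard4 and Scd1. The authors' deposited table gives log2 fold changes of -0.45 for Sqle, -0.55 for Fasn and -0.68 for Hsd17b7. It names the same transcript as the TPM table for 27 genes and another transcript for Hmgcs1, Mvk, Mvd, Fdps and Fdft1. Both tables come from the same 6 libraries.

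Other genes of the pathway were counted from lists set beside the 32. By the same rule 13.2% of all tested genes fell and 8.71% rose. Of 13 genes of SREBP processing and sterol-regulated degradation 2 fell (15.4%). They were Ubxn8 (log2 fold change -0.42, limma adjusted p = 0.0104) and Ube2g2 (-0.23, limma adjusted p = 0.0143), the latter a ubiquitin-conjugating enzyme of the endoplasmic reticulum. Srebf1, the paralogue of Srebf2 and named here after its values were seen, was at 27.9, 29.3 and 27.3 TPM in wild type, against 27.9, 25.2 and 24.5 TPM in transgenic macrophages and did not pass (limma adjusted p = 0.183). Of 14 genes that use isoprenoids 1 fell (7.14%), Nus1, a subunit of the enzyme that makes dolichol (log2 fold change -0.40, limma adjusted p = 0.000558).

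Further fatty acid genes fell in 6 (30%) and rose in 1 (5%) of 20 tested cases, against 13.2% and 8.71% of all tested genes. Scd2, a second oleate-forming desaturase, fell (log2 fold change -0.26, limma adjusted p = 0.0045), as did Mid1ip1, an activator of acetyl-CoA carboxylase (-0.17, limma adjusted p = 0.0207), although Mid1ip1 lost the call in 4 of the 6 fits without a library. Lpin1, a phosphatidate phosphatase of triglyceride synthesis, rose (0.33, limma adjusted p = 0.0109). Genes of sterol uptake and handling went both ways, with 4 higher (33.3%) and 2 lower (16.7%) of 12. Lrp1, a large endocytic receptor for lipoproteins and other ligands, fell (log2 fold change -0.28, limma adjusted p = 0.000209). Lipa, the lysosomal lipase that frees cholesterol from its esters, rose (0.29, limma adjusted p = 0.000265), and so did Cyp27a1, which makes an oxysterol (0.43, limma adjusted p = 6.71e-05). Of 9 genes of the LXR pathway and sterol efflux, 2 rose (22.2%) and 3 fell (33.3%). The rises include Abcg1, a sterol exporter (0.33, limma adjusted p = 0.00345), and the falls Nr1h3, which encodes LXR alpha (-0.51, limma adjusted p = 0.00111). Over these lists and a further list of sterol genes together, 16 of 74 tested genes fell (21.6%) and 7 rose (9.46%). Over all tested genes the shares were 13.2% and 8.71%.

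Promoter windows of 300 bases, from 250 before to 50 after the transcription start, were matched in RefSeq (GRCm38.p6) for 26 of the 32 genes, and those of Fdps, Fdft1, Sqle, Scd1, Fads1 and Stard4 were not used here. All counts take both strands and count a gene once over its windows. The CCAAT box was in 21 of 26 genes (80.8%), against 41.1% of all genes with a window and 42.2% of the tested ones. It was in 10 of the 10 called genes with a window and in 11 of the 16 others (68.8%). Pmvk counts only through its window at chr3:89454291-89454590, upstream of the measured transcript, which starts at 89459118. Its window nearer to that start holds no CCAAT box. Among the others, Dhcr7 counts only through its window at chr7:143829964-143830263, downstream of its measured start at 143823167. The Dhcr7 window at that start holds neither a CCAAT box nor an E-box. The GC box GGGCGG, to which Sp factors bind, was in 20 of 26 (76.9%), against 67.2% of tested genes. The E-box CACGTG, which SREBP can also bind, was in 6 of 26 (23.1%), against 12.0% of tested genes. Dhcr7 is among these 6 only through a window other than that at its measured start. The sterol regulatory element in the form TCACNCCAC was in 1 of 26 (Hmgcs1, printed above), against 1.44% of all genes. Variants of this element and sites outside the windows were not searched, so the other genes may still hold one. TTANGTAA, a strict form of the site to which E4BP4 binds, was in the windows of 0 of 26 genes, against 1.80% of tested genes. None of the motifs overlapped a different motif. Such matches describe letters in these windows and say nothing of whether a factor was bound.

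**Figure D5:**
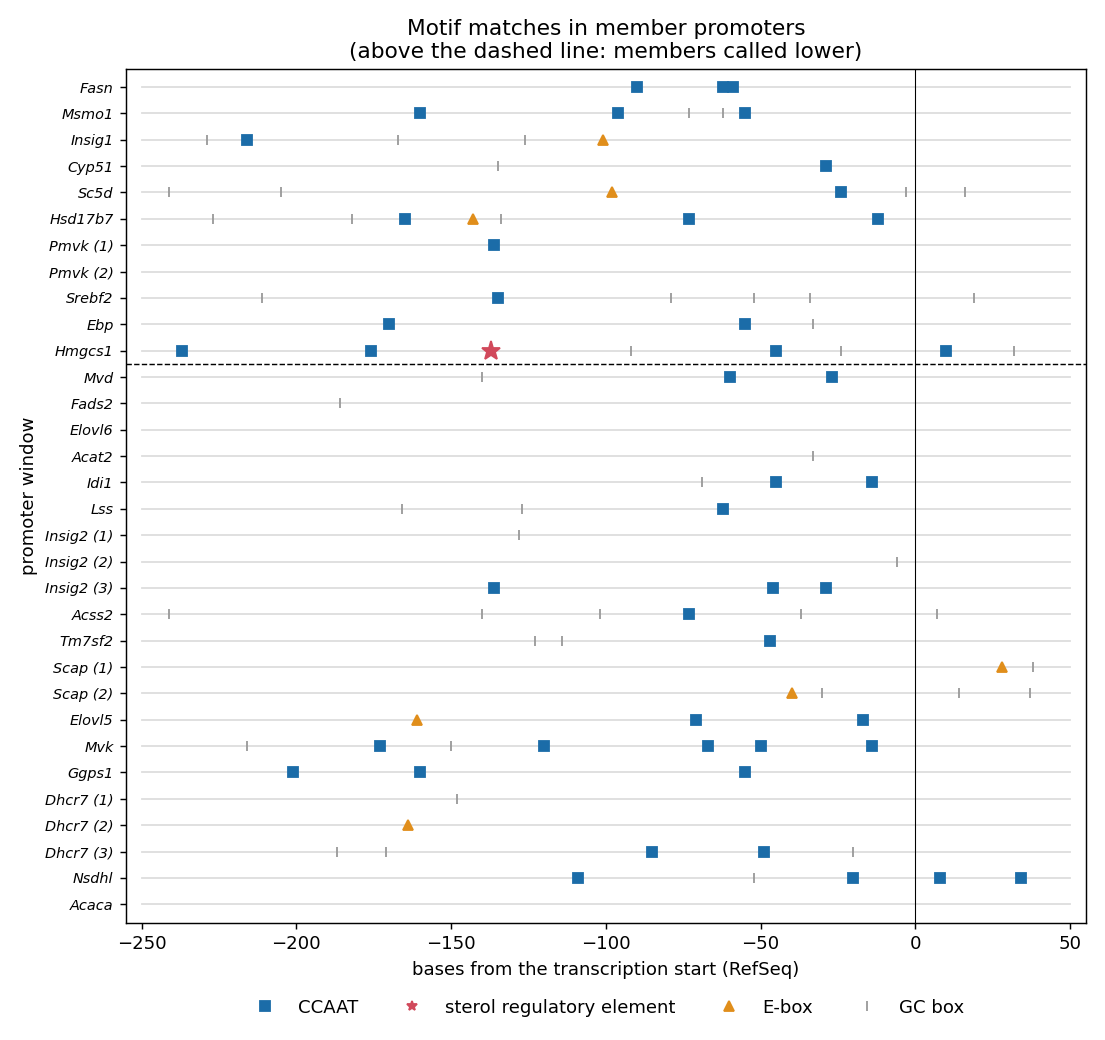
Positions of motif matches in the 32 promoter windows of 26 genes, in bases from the RefSeq transcription start, with genes called lower above the dashed line and alternative windows of a gene numbered. Squares (CCAAT) occur in a window of all 10 called genes, and the single star marks the sterol regulatory element of Hmgcs1 at 137 bases before the start.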

How the data were processed

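Macrophages from the colon were sorted and their polyadenylated RNA sequenced from 20 ng of total RNA, in 3 wild type and 3 transgenic libraries grouped by sample title. Per the submitters' processing notes, bcl2fastq, STAR, HOMER 4.11.1 and DESeq2 were used with build mm10. Neither their settings nor any use of strand is given in the sources used here. The authors deposited TPM for 1 RefSeq transcript per gene with its exon length, per the file headers. A second table deposited by the authors holds log2 values of each library and, per gene, the log2 fold change with its p-value before and after adjustment. The TPM columns sum to 543612 to 545319.

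The test, in R 4.3.3 with limma 3.58.1, was limma-trend on log2(TPM + 1), two-sided, with genotype as the single term, over the 12633 genes that averaged 1 TPM or more in either group, and Benjamini-Hochberg adjustment over all of them. A fold change on this scale understates that of low genes. An exact permutation test of 3 against 3 libraries cannot go below p = 0.1 and was not used. TPM times exon length gave whole reads, within 0.1 reads, for 99.96% to 99.99% of values up to 1000 reads. These reads served for depth and for limma-voom. For a transcript of 2000 bases, the limit that 3 reads allow was 0.113 to 0.122 TPM, for counting error only. The fit was checked on simulated data. The chi-square of library pairs, over its degrees of freedom, was 2.05 to 2.74 within groups and 14.2 to 15.03 across groups, so none counted as a repeat of another. Gene positions use mm10 and promoters RefSeq on GRCm38.p6, the same assembly.

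The members and all gene lists were chosen with earlier results of these data known. All 32 members are named, and of each other pathway list at most 3 genes with the lowest unadjusted p, besides Srebf1. Some genes that this rule takes are left out of the text. Of each marker list the named genes are those with the highest mean TPM. Alternatives covered the pseudocount, the filter, 2 scalings, limma-voom, the authors' log2 values, the replicate number as a block and each library left out.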

Additional observations from a re-analysis of the deposited data

How the results depend on the processing

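Of 441 values of the 32 genes under 14 alternatives, 373 kept direction and side of the threshold, 44 lost the call in the same direction, 10 gained one and 14, over 7 genes, changed sign. None of the 13 called genes changed sign. The number of members that fell was 13 as reported, 15 by limma-voom, 16 in the authors' log2 values, 12 with a pseudocount of 0.1, 12 with a filter of 5 TPM, 8 with no filter, and 8 to 10 without single libraries. The number that rose was 0 as reported, 2 by limma-voom (Fads1 and Fads2) and 0 to 1 without single libraries. Over all genes, 1783 rose by limma-voom against 1100 as reported, 2783 fell in the authors' log2 values against 1666, and leaving out single libraries gave 704 to 883 higher and 1231 to 1373 lower. Upper-quartile scaling gave 1425 higher and 1315 lower, and median-of-ratios scaling 1234 and 1457. These moved the median log2 fold change of all genes from -0.01 to 0.02 and 0.00, and left 9 members lower under each. The cause of these shifts was not tested. With the replicate number as a block, 10 members fell, 0 rose, and 1457 genes were lower and 922 higher. The block ended the calls of Hmgcs1, Pmvk and Srebf2. Deviations of same-numbered libraries from their group means correlated at -0.01, -0.04 and 0.03, and only the libraries numbered 3 correlated best with their own number, so the numbers were not taken to pair the libraries.

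Signs changed for small values only. Upper-quartile scaling gave 0.0069 for Nsdhl, 0.0149 for Dhcr7, 0.0025 for Ggps1 and 0.0086 for Elovl5. The authors' log2 values gave 0.0123 for Ggps1, -0.0147 for Scap, 0.057 for Acaca, -0.0376 for Ctsb and -0.0387 for Acat3. Over the 6 fits that each left out 1 library, Mvk ranged from -0.0517 to 0.1115, Nsdhl from -0.0773 to 0.0087, Dhcr7 from -0.0561 to 0.0008, Ggps1 from -0.0613 to 0.0048, Acaca from -0.0833 to 0.0266, Ctsb from -0.0033 to 0.0089 and Acat3 from -0.0495 to 0.0302.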

Other observations

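Transgenic replicate 1 held the lowest of the transgenic values for 14 of the 32 genes, replicate 2 for 7 and replicate 3 for 11. Among the 13 genes that fell, these counts were 7, 2 and 4. In wild type, replicate 1 held the lowest value for 15 genes, replicate 2 for 10 and replicate 3 for 7.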
